A study of Homo sapiens with 4 samples.

Results

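The genes that hold epithelial cells together and give them a top and a bottom were examined in TPC1, a human cell line of papillary thyroid carcinoma, with and without overexpression of INAVA (innate immunity activator, listed under its older symbol C1orf106). Members were chosen by name, as 45 genes of tight junctions, catenins, desmosomes, polarity complexes and epithelial splicing or surface proteins. Of these, 29 are listed in the deposited table of 13165 genes and were described. The other 16 were not analysed here, and no level can be given for them: TJP3, MARVELD2, CLDN3, CLDN4, CLDN6, CLDN7, CLDN11, JAM2, DSP, DSC3, PPL, EVPL, PRKCZ, EPCAM, ESRP1 and ST14. In the table the higher group of each gene was at 0.278 FPKM or more.

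RNA had been sequenced from TPC1 cells carrying the empty vector (TPC1-Vector) and from TPC1 cells expressing C1orf106 (TPC1-INAVA), with 2 libraries in each group. Both groups were grown in the same serum-containing medium and were selected with 0.5 μg/mL puromycin, each as its own stable line, so that a difference between lines and an effect of INAVA cannot be told apart. The study's methods name the retroviral plasmid pQCXIP as the carrier of the full-length cDNA, whereas the labels speak of transfection. The unit is FPKM, sequenced fragments scaled to transcript length and to the library's mapped total, and each gene has 1 such value per group in the deposited table, so no spread between libraries and no read depth can be given for any value below, and no test was run on them.

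Tight junctions seal neighbouring epithelial cells near their apical side. Claudins and occludin form the strands, and ZO proteins and cingulin tie the strands to actin. Below them, catenins link cadherins to actin at adherens junctions, and desmosomes anchor keratin filaments through desmogleins, desmocollins, plakoglobin and plakophilins. The Par, Crumbs and Scribble complexes mark the apical and the basolateral membrane and position the junctions. In the gut, INAVA is known to act on junction stability through cytohesins and ARF6.

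INAVA itself was 15.4 times higher in the cells labelled as expressing it (123 FPKM) than in TPC1-Vector (7.96 FPKM). From here on, paired levels give TPC1-Vector first and TPC1-INAVA after it. Of 9 thyroid lineage markers 3 are listed, with PAX8, a thyroid transcription factor, at 60.1 and 55.7 FPKM, and of 4 simple epithelial keratins 3 are listed, summing to 166 and 224 FPKM. Keratins 8 and 18, which share a deposited position, were at 23.4 and 10.5 FPKM and at 140 and 212 FPKM. Thyroglobulin, thyroid peroxidase and the TSH receptor were not analysed here. Of the markers of other cell types, 3 of 8 fibroblast genes (sum 3.56 and 2.19 FPKM), 2 of 5 immune genes (6.06 and 8.91 FPKM, mostly CD68) and 0 of 4 endothelial genes are listed, and their part in the results was not tested.

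Junction and polarity transcripts spanned a wide range of levels in these cells, and most were close to equal in both groups. CLDN1, the main listed claudin, was the exception past 1.5-fold: its level was 84.2 FPKM with the vector and 48.5 FPKM with INAVA. Of the 29 members, 16 were at 10 FPKM or more in both groups, led by CTNNB1 and CTNNA1, and 4 (JAM3, PARD6A, CRB3 and ESRP2) were under 1 FPKM in both. FPKM is a level per transcript length, so levels can be set side by side between genes as far as the transcript models behind them hold. Those models are not given in the sources used here. In bulk RNA, fewer expressing cells and less RNA per cell cannot be told apart.

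**Figure D1:**
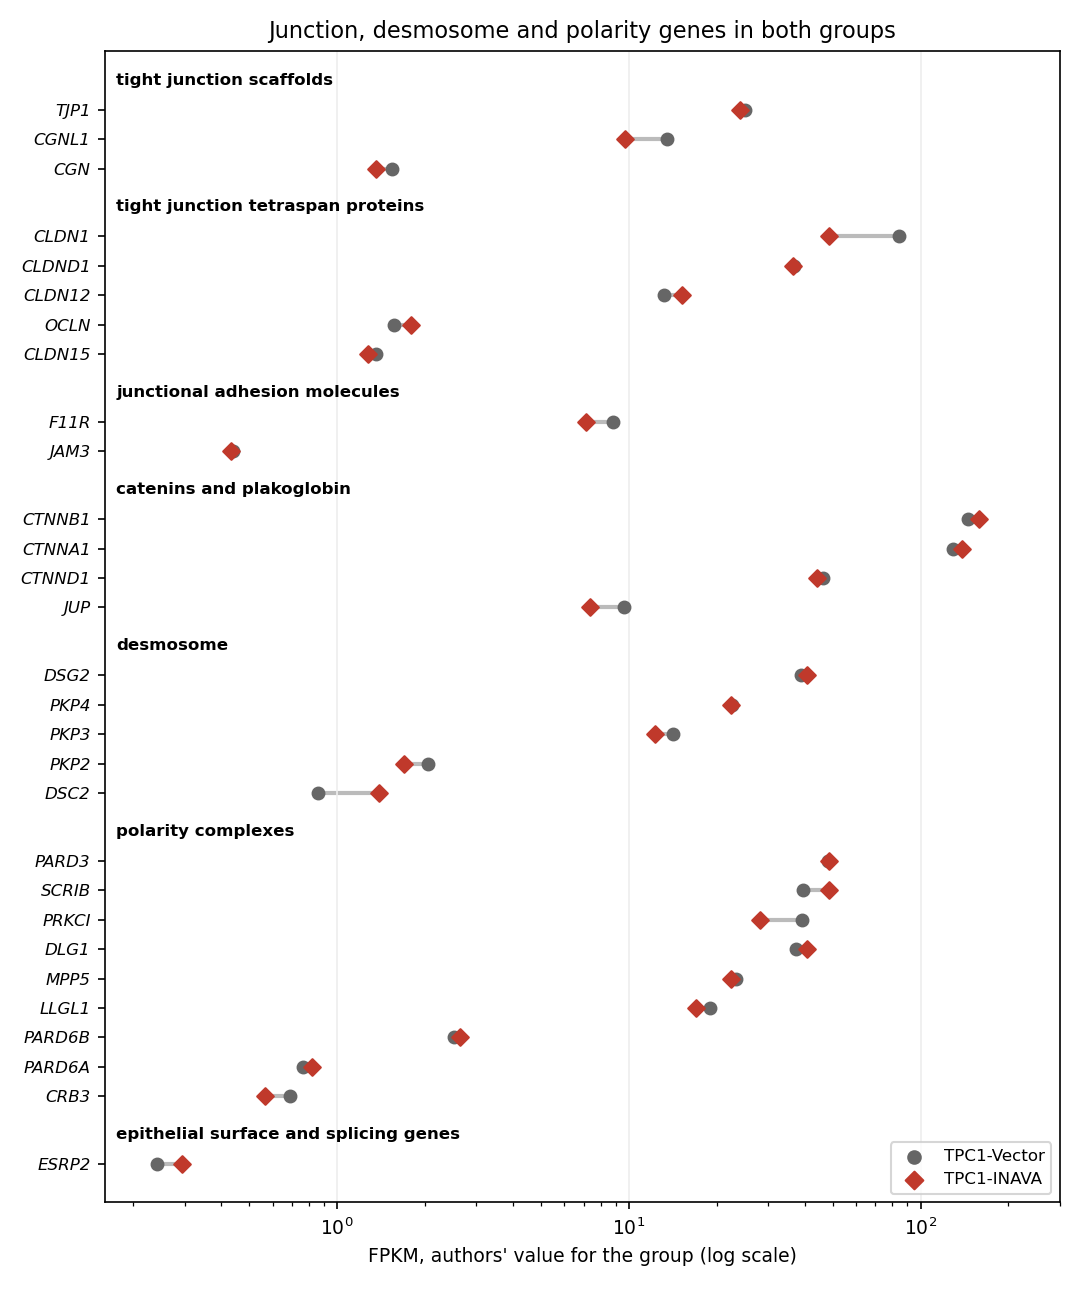
Level of each of the 29 listed members in FPKM on a log axis, with TPC1-Vector as grey circles and TPC1-INAVA as red diamonds, each the authors' value for the group, grouped by role. The symbols nearly coincide for most genes and lie furthest apart for CLDN1 (84.2 and 48.5 FPKM) and DSC2 (0.857 and 1.39 FPKM).

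Differences are given as log2(FPKM + 0.5) in TPC1-INAVA minus that in TPC1-Vector, a scale that shrinks ratios between low values. A gene was compared if its mean of both values reached 0.5 FPKM, which left 27 members (JAM3 and ESRP2 were under it) and 12305 genes in all. Past 1.5-fold, 1 member (CLDN1) was lower and 0 were higher. Over all compared genes 1.45% were at least 1.5-fold lower and 2.24% at least 1.5-fold higher, which is 3.70% in either direction. The 1 of 27 members (3.70%) is near the share in either direction. Against the share lower alone, it rests on 1 gene. Past 2-fold there were 0 members in either direction, against 0.244% of all genes lower and 0.61% higher. The median difference was -0.053 over the 27 members and 0.0033 over all genes, and 16 members had a difference below 0 and 11 above. Of all compared genes, 49.2% were below 0. The members also spread like the other genes: 70.4% of them and 70.2% of all genes lay within 0.2 of 0.

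**Figure D2:**
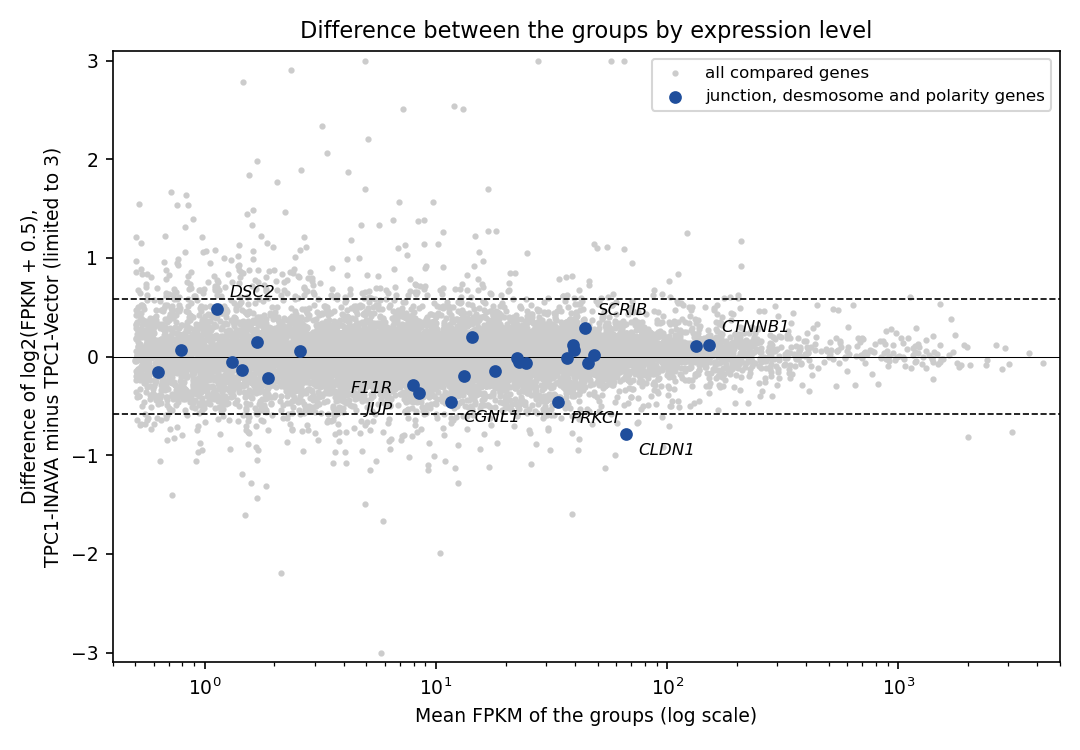
Difference between the groups on the log2(FPKM + 0.5) scale against the mean FPKM of the groups on a log axis, for the 27 compared members (blue) and all 12305 compared genes (grey), with dashed lines at 1.5-fold and grey points past the axis drawn at its edge. CLDN1 (-0.79) is the member outside the lines, and the other members lie among the grey points.

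Claudins are the strand-forming proteins that set which ions and solutes pass between cells. CLDN1 (chromosome 3, 190305701 to 190322446, hg38, reverse strand) is a barrier-forming claudin with 2 transcripts in GENCODE release 29. Its ratio, TPC1-Vector to TPC1-INAVA, was 1.74 and its log2 difference -0.79, beyond that of 98.4% of compared genes in size. It moved from rank 926 to rank 1805 among the genes of the table. CLDN12, a claudin without the usual PDZ-binding tail, was at 13.2 and 15.3 FPKM (0.20), and CLDN15, a pore-forming claudin, at 1.35 and 1.28 FPKM (-0.06). The other listed claudins, CLDN2, CLDN16, CLDN22 and CLDN23, were each under 1.3 FPKM in both groups. CLDN1 thus made up 82.4% of the summed FPKM of the 7 listed claudins in TPC1-Vector and 71.0% in TPC1-INAVA. The sum was 102 and 68.3 FPKM, and without CLDN1 it was 18.01 and 19.83 FPKM. CLDN1 stood at 6.36 times CLDN12 in TPC1-Vector and at 3.18 times in TPC1-INAVA.

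Occludin (OCLN), a tetraspan protein of the strands, was low, at 1.56 and 1.79 FPKM, with a difference of 0.15. CLDND1, a relative of the claudins that is not known as a strand protein, was at 36.9 and 36.7 FPKM. The scaffold TJP1 (ZO-1), which binds claudin tails, was at 25.0 and 23.9 FPKM (-0.06). CGNL1 (paracingulin), which links junctions to the cytoskeleton, was at 13.5 and 9.68 FPKM, with a difference of -0.46, the next lowest among members after PRKCI and CLDN1. Cingulin (CGN), its paralogue, was at 1.54 and 1.36 FPKM (-0.13). The adhesion molecule F11R (JAM-A), an early organiser of the junction that binds the Par complex, was at 8.83 and 7.14 FPKM (-0.29), whereas JAM3 was at 0.439 and 0.432 FPKM. All 3 compared scaffolds and F11R were on the lower side in TPC1-INAVA, each by less than 1.5-fold. Of all compared genes, 49.2% were below 0. Of 15 other compared tight junction genes that are no members, 9 were below 0 and 6 above.

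Upstream sequence is shown for the members with the lowest and the highest difference, CLDN1 and DSC2, and for CRB3, which held the most E-boxes. E-boxes of the form CAGGTG, or CACCTG when read on the other strand, are the sites that the ZEB and SNAI repressors of epithelial genes are known to bind. Each sequence is the 250 bases before a RefSeq start on GRCh38.p14, written 5′ to 3′ in the direction of the gene, with E-boxes in capitals. The start used for DSC2 lies inside its deposited interval. The windows lie at chr3:190322447-190322696 (CLDN1, reverse strand), chr18:31102422-31102671 (DSC2, reverse strand) and chr19:6464021-6464270 (CRB3, forward strand).
CLDN1: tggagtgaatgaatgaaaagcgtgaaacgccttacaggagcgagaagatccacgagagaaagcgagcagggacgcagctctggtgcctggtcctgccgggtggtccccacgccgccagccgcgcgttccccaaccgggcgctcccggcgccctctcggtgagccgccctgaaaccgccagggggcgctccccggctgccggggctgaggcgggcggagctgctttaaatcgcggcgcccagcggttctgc
DSC2: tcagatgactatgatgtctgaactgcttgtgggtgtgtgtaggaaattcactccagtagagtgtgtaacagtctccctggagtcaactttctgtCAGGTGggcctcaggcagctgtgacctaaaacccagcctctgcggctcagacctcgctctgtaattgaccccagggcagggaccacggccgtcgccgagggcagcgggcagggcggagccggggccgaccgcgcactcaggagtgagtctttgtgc
CRB3: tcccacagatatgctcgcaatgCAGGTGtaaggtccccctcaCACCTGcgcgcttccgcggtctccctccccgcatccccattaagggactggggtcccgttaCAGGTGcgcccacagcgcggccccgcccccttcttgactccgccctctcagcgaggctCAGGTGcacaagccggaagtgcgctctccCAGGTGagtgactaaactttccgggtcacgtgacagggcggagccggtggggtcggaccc
The window of CLDN1 held 0 E-boxes, that of DSC2 held 1 and that of CRB3 held 5. A further RefSeq window of DSC2, not shown, held 0. RefSeq windows were found for 18 of the listed members and 10 of the members not listed, some genes having several starts. At least 1 E-box was in 8 of 32 windows of listed members (25.0%), in 5 of 16 windows of the others (31.3%), and in 17.5% of all 35116 windows. A match describes letters only, and binding was not measured.

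CTNNB1 and CTNNA1 were the most abundant members. CTNNB1 (β-catenin), which joins cadherins to α-catenin and also acts in Wnt signalling, was at 146 and 159 FPKM (0.12). CTNNA1 (α-catenin), the link to actin, was at 129 and 138 FPKM (0.11), so that the ratio of CTNNB1 to CTNNA1 was 1.13 in TPC1-Vector and 1.15 in TPC1-INAVA. CTNND1 (p120), which keeps cadherins at the membrane, was at 46.3 and 44.3 FPKM (-0.06). JUP (plakoglobin), the catenin shared by adherens junctions and desmosomes, went to the other side, with 9.63 and 7.34 FPKM and a difference of -0.37. CTNNB1 stood at 15.1 times JUP in TPC1-Vector and at 21.6 times in TPC1-INAVA.

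Among desmosomal genes, the cadherin DSG2 (desmoglein 2) was at 38.8 and 40.6 FPKM (0.07), while its partner DSC2 (desmocollin 2, chromosome 18, 31065974 to 31162856) was low, at 0.857 and 1.39 FPKM. The difference of DSC2 was 0.48, the highest of the members and short of 1.5-fold. As a plain ratio of the deposited values it was 1.63, which is past 1.5-fold, so its place depends on the 0.5 added. DSG2 stood at 45.2 times DSC2 in TPC1-Vector and at 29.2 times in TPC1-INAVA. The plakophilins bind desmosomal cadherins to the plaque. PKP4, found mainly at adherens junctions, was at 22.6 and 22.3 FPKM, PKP3 at 14.2 and 12.3 FPKM (-0.20) and PKP2 at 2.05 and 1.69 FPKM (-0.22). Desmoplakin (DSP), the link to keratin filaments, was not analysed here.

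In the Par complex, the scaffold PARD3 was at 48.0 and 48.5 FPKM, a difference of 0.01 (-0.01 after quantile normalization). PRKCI (chromosome 3, 170222432 to 170305982), the atypical protein kinase C that phosphorylates PARD3 and other polarity proteins, was at 39.1 and 28.2 FPKM, with a difference of -0.46. PARD3 therefore stood at 1.23 times PRKCI in TPC1-Vector and at 1.72 times in TPC1-INAVA. PARD6B and PARD6A, the adaptors of the kinase, were low, at 2.52 and 2.64 FPKM and at 0.762 and 0.819 FPKM. The third paralogue, PARD6G, which is no member, was above both, at 4.33 and 4.88 FPKM.

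In the Scribble complex of the basolateral side, SCRIB was at 39.6 and 48.7 FPKM (0.29), DLG1 at 37.5 and 40.7 FPKM (0.12) and LLGL1 at 18.9 and 17.0 FPKM (-0.15). SCRIB stood at 2.097 times LLGL1 in TPC1-Vector and at 2.857 times in TPC1-INAVA. In the Crumbs complex of the apical side, MPP5 (PALS1), the scaffold, was at 23.2 and 22.4 FPKM (-0.05), and CRB3, its transmembrane partner, at 0.689 and 0.563 FPKM (-0.16). Over the 9 compared polarity genes the median difference was 0.01, with 5 above 0 and 4 below (4 and 5 after quantile normalization). ESRP2, a splicing factor of epithelial isoforms, was the one gene listed of its list, at 0.241 and 0.293 FPKM.

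The other compared genes of the same structures held none past 1.5-fold. Under the level for comparison, MPP7 was past it, at 0.23 and 0.64 FPKM (0.65), and CLDN2 (-0.42) and LSR (0.34) were not. Of the 48 compared genes of tight and adherens junctions, desmosomes and polarity complexes that are no members, 0 were past 1.5-fold in either direction. Their median difference was -0.02, with 19 above 0 and 29 below, beside 49.2% of all compared genes below. Within 0.2 of 0 lay 28 of these 48 genes and 19 of the 27 members, and the median size of the difference was 0.158 in these genes, 0.132 in the members and 0.121 in all compared genes. The cadherin CDH2 (N-cadherin) was at 14.4 and 13.1 FPKM (-0.13), and CDH1 and CDH3 were not analysed here. The lowest differences among them, singled out after their values were seen, were those of INADL (PATJ, which joins MPP5 in the Crumbs complex), at 3.31 and 2.13 FPKM (-0.53), the scaffold MPP1, at 24.0 and 16.7 FPKM (-0.50), and VCL (vinculin, which reinforces α-catenin on actin), at 121 and 85.5 FPKM (-0.50). The cytohesins CYTH1, CYTH2 and CYTH3 were at 11.32 and 10.95, 11.5 and 14.1, and 13.5 and 12.7 FPKM, and ARF6 was at 77.9 and 76.8 FPKM.

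Of the epithelial transcription factors and protease inhibitors, 4 are listed and 3 were compared. ELF3, an epithelial ETS factor, was the 1 past 1.5-fold, at 0.910 and 2.03 FPKM (0.84). KLF5 was at 2.09 and 2.27 FPKM, GRHL1 at 1.28 and 1.04 FPKM, and SPINT2, an inhibitor of matriptase-like proteases, at 0.218 and 0.365 FPKM. GRHL2 and SPINT1 were not analysed here.

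**Figure D3:**
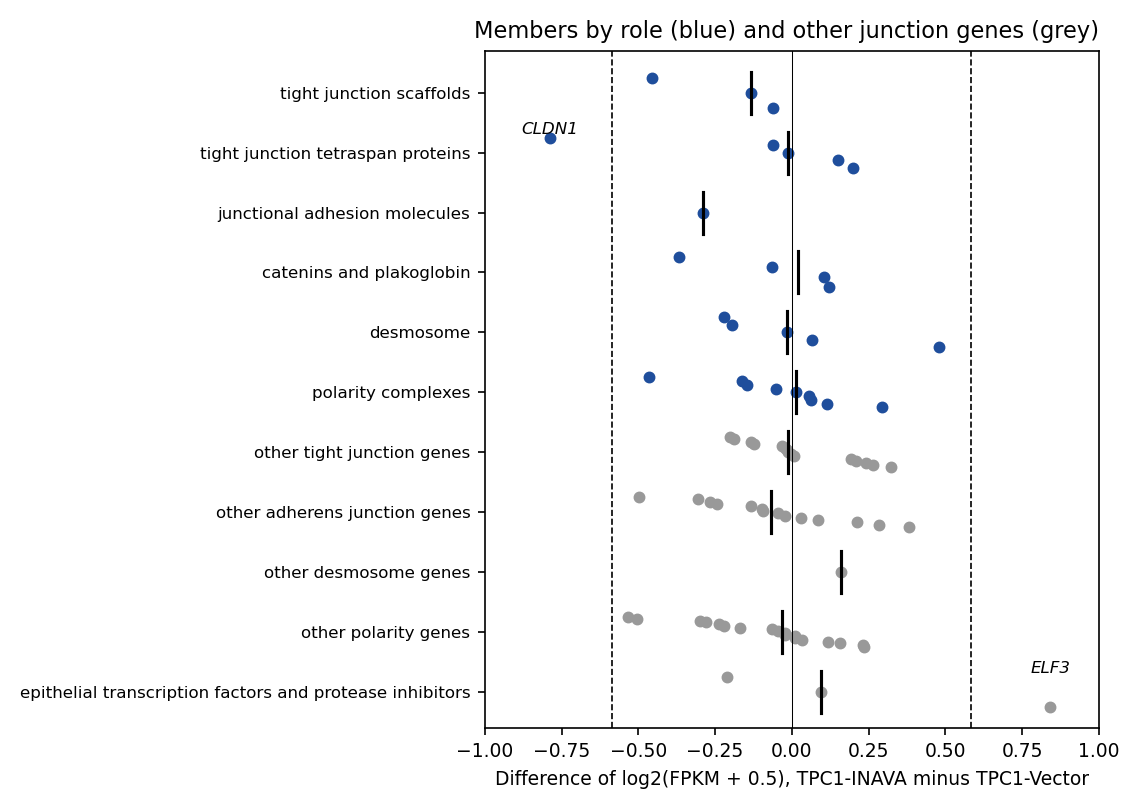
Difference on the log2(FPKM + 0.5) scale for each compared gene, by list, with members in blue, other genes in grey, a black bar at each list's median and dashed lines at 1.5-fold. CLDN1 (-0.79) and ELF3 (0.84) lie outside the lines, and the medians of the member lists run from -0.29 (F11R alone) to 0.02 (catenins).

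Each member was also set beside the genes around it on its chromosome. The median difference of genes within 5 Mb that averaged 1 FPKM or more was computed for 25 compared members. For 22 of them it was within 0.11 of 0, and for PRKCI, PARD6B and CLDN1 it was further away. TJP1 and SCRIB are placed on alternative contigs in the table and have no such value.

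**Figure D4:**
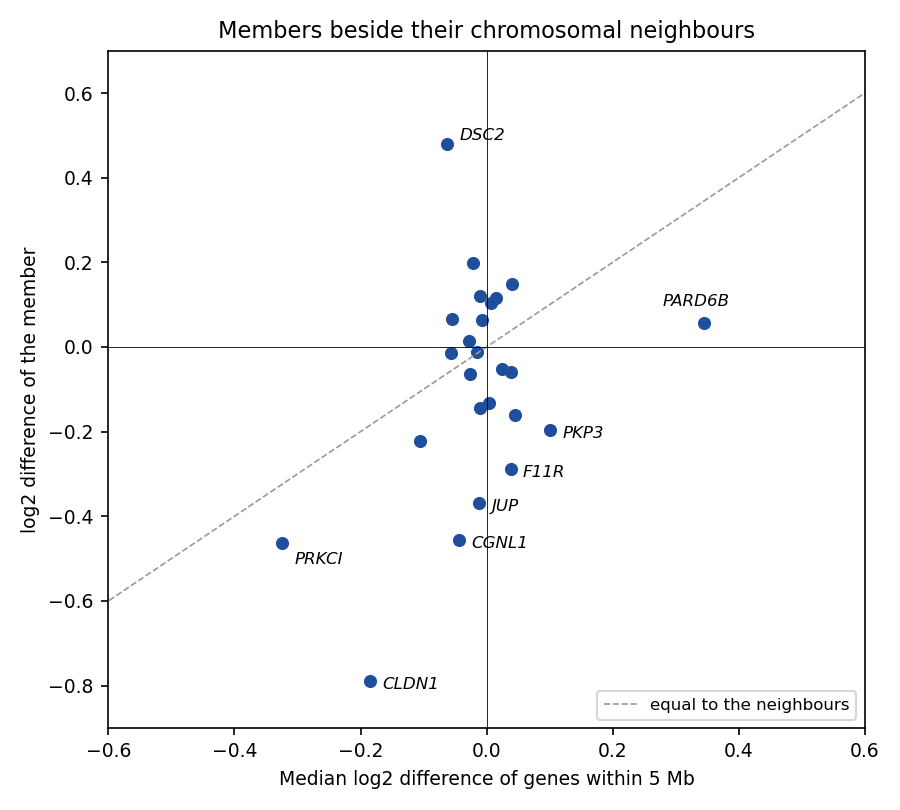
Difference of each of 25 compared members against the median difference of genes within 5 Mb, both on the log2(FPKM + 0.5) scale, with a dashed line where both are equal. PRKCI lies near the line at a neighbour median of -0.32, PARD6B (0.06) lies under it at 0.35, and CLDN1 and CGNL1 lie under it at -0.18 and -0.04.

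Around PRKCI, 16 of 19 genes were lower in TPC1-INAVA, with a median of -0.32, and PRKCI differed from that median by -0.14. Of these genes 4 were further down than PRKCI. Around PARD6B on chromosome 20, 42 of 46 genes were higher in TPC1-INAVA, with a median of 0.35, while PARD6B was at 0.06, which is 0.29 under the median (-0.29), with 41 of the 46 above it. Around CLDN1, genes at lower coordinates had a median of -0.24 (12 of 18 lower) and those at higher coordinates a median of -0.01 (7 of 13 lower). CLDN1 was 0.61 under the median of all 31 (-0.61), and 30 of the 31 were above it. Its nearest neighbour at higher coordinates, CLDN16, was at 1.28 and 1.27 FPKM (-0.01). At lower coordinates the nearest were P3H2, at 98.2 and 83.6 FPKM (-0.23), and P3H2-AS1, at 3.92 and 3.08 FPKM (-0.31). CGNL1, F11R and JUP had neighbours near 0 (-0.04, 0.04 and -0.01), as did DSC2 (-0.06). The part of neighbouring shifts in the members' values was not tested.

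**Figure D5:**
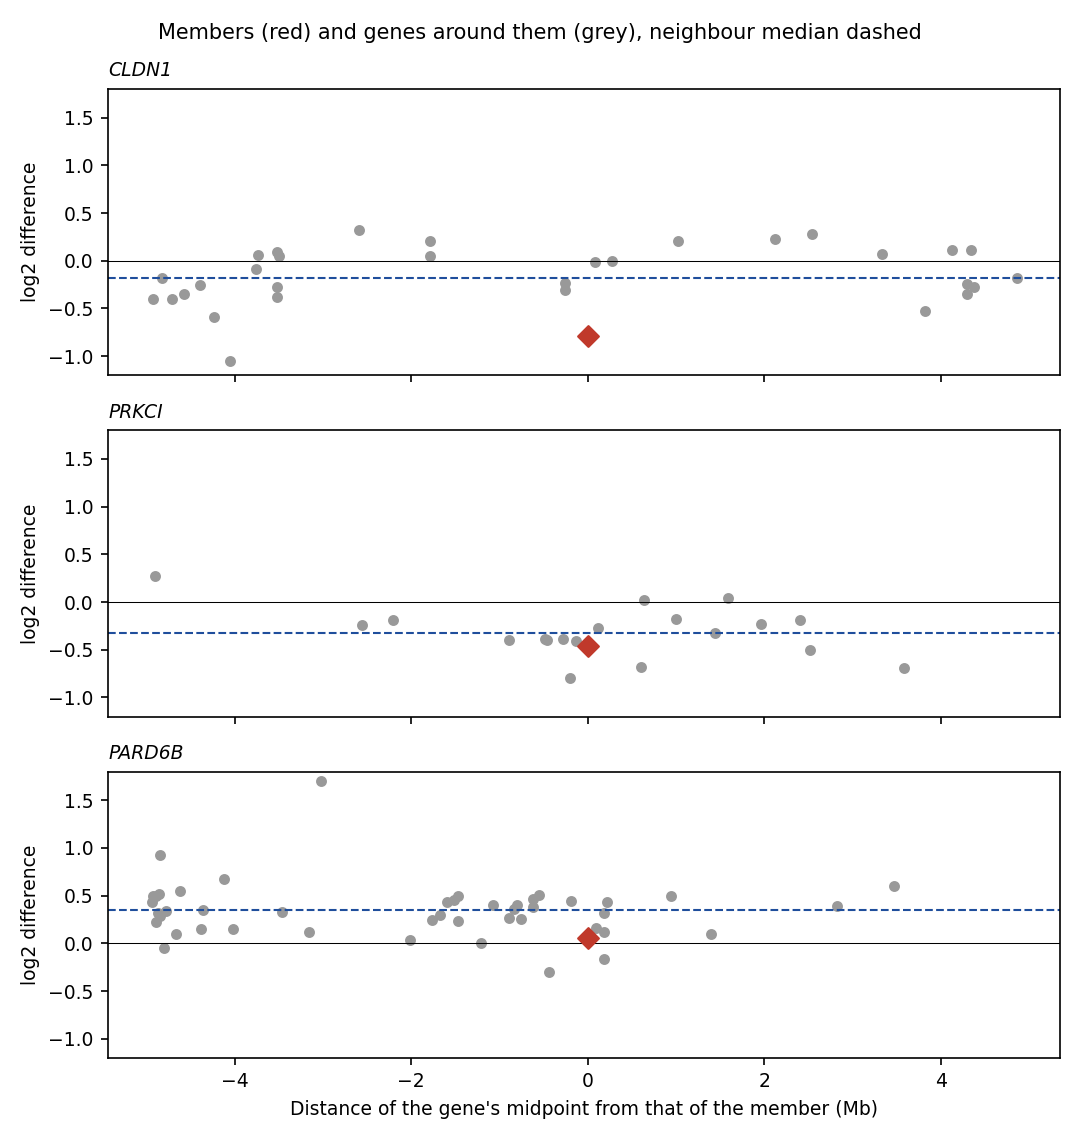
Difference on the log2(FPKM + 0.5) scale of genes within 5 Mb (grey) of CLDN1, PRKCI and PARD6B (red diamonds), against distance in Mb, with the neighbour median dashed. CLDN1 (-0.79) lies under 30 of its 31 neighbours, PRKCI (-0.46) among its own, and PARD6B (0.06) near the lower edge of its own.

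Some member values may hold reads of another gene. CTNND1, LLGL1 and ESRP2 share their deposited position with another gene (TMX2 and C11orf31, FLII, and NFATC3). In GENCODE release 29, 6 members overlap a listed gene on the opposite strand: CTNNB1 (ULK4), JAM3 (NCAPD3), LLGL1 (FLII), MPP5 (ATP6V1D), CRB3 (SLC25A23) and ESRP2 (NFATC3). Whether reads were counted by strand is not given in the sources used here. The deposited interval of DSC2, on the reverse strand, ends at 31162856, upstream of its window at 31102422 to 31102671. What its value holds from that stretch was not examined, and its ratio to DSG2 carries the same limit. Neither group of overlaps includes CLDN1, CGNL1, PRKCI, JUP or F11R.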

How the data were processed

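RNA-seq of TPC1-Vector and TPC1-INAVA cells (2 libraries each) was compared. The submitters' processing notes list CASAVA, Cufflinks 2.1.1 and Cuffdiff and the build hg38, and the aligner and annotation are not given in the sources used here. In the deposited table each gene has a single FPKM from the authors for either group (1 value per group), the libraries having been combined, and depth and counting error are unknown. The authors also deposited a log2 ratio, p-values and q-values, which were not used. The methods name a VAHTS kit and the labels a NEBNext kit.

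Here log2(FPKM + 0.5) was compared for the 12305 genes averaging 0.5 FPKM or more, without a test, and a gene past 1.5-fold was called. Neighbours were genes averaging 1 FPKM or more within 5 Mb, at least 10 of them. Deposited starts count from 0 and were raised by 1, which gives the RefSeq start for 2598 of 11668 genes, against 313 without. Members were matched by symbol. They and the other lists were chosen with earlier results of these data known. Named are all listed members, other junction genes past 1.5-fold at 1 FPKM or more, and the cadherins, GRHL2 and the SPINT genes. A gene that the rule also names is not reported here by name and is counted in the totals. INADL, MPP1, MPP7, LSR, VCL, PARD6G, KLF5, GRHL1, the cytohesins, ARF6 and the neighbours were named after their values were seen. A planned comparison of claudin protein sequences was not run. The steps were checked on simulated data. Alternatives were pseudocounts of 0.1 and 1, other filters, scalings and windows, and, chosen after seeing the data, no pseudocount. Python 3.11.15, numpy 2.4.6, pandas 2.3.3 and matplotlib 3.10.9 were used.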

Additional observations from a re-analysis of the deposited data

How the results depend on the processing

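No paired analysis was possible because each group is given as 1 combined value, and for the same reason no library could be left out. CLDN1 was between -0.78 and -0.82 under all pseudocounts and scalings and stayed the 1 member at least 1.5-fold lower. The members at least 1.5-fold higher, 0 with 0.5 added, were 1 (DSC2) with 0.1 added and 1 with no pseudocount, because a smaller pseudocount shrinks weak genes less. DSC2 was at 0.64 with 0.1 added, 0.37 with 1 added and 0.70 with none. The median over all members ran from -0.057 to -0.015. The junctional adhesion list moved from -0.29 to -0.15 with no filter, which adds JAM3. The fibroblast markers, at -0.48, were at -0.64 with 0.1 added, -0.37 with 1 added and -0.70 with no pseudocount, and the immune markers, at 0.55, were at 0.22 with no filter, which adds CD14. Over all genes, those at least 1.5-fold lower, 179 with 0.5 added, were 289 with 0.1 added and 329 with no pseudocount, and those at least 2-fold higher and lower, 75 and 30, were 121 and 58, and 151 and 68. Scalings turned the sign of 1 member, PARD3. PRKCI differed from its neighbours by -0.08 within 2 Mb and -0.07 within 10 Mb. CLDN1 and DSC2 have under 10 neighbours within 2 Mb and no value there. The log2 differences of the other members and the other list medians moved by less than 0.1, save 2 members. These were CRB3 (-0.29 with no pseudocount) and ESRP2 (0.21 with 0.1 added and 0.29 with none). Single genes that are no members were not followed through these settings. With 1 value per group, no difference here can be set against the spread between libraries.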
